A study of Homo sapiens with 3 samples.

Results

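Laminins and the collagens of the basement membrane were followed through acquired resistance to BIBW2992. This drug, afatinib, binds the kinases EGFR and ERBB2 irreversibly, and the cells were HCC827, a line from a human lung adenocarcinoma with a mutant EGFR. The genes listed were LAMA3, LAMA5, LAMB1, LAMB2, LAMB3, LAMC1, COL4A1, COL4A2 and COL17A1, and every probe that the platform annotation names for them was taken. Of these 9 genes 7 had a probe, 10 probes in all, among 18852 named genes and 48803 probes on the array. No probe was named for LAMA3 or COL17A1, which were not analysed here. Both resistant groups were sublines of HCC827, each set up from 1 clone that grew out over 3 to 4 months of rising BIBW2992 up to 2 µM. Clone 1 (HCC827-BR1), clone 2 (HCC827-BR2) and drug-sensitive parental HCC827 cells were measured on 1 array each, from total RNA on Illumina HumanHT-12 v3 BeadChips. Whether drug was present at harvest is not labelled, nor is any unselected clone, so selection, cloning, time in culture and drug cannot be told apart.

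The basement membrane is the sheet of matrix under epithelial cells. Laminins are trimers of 1 alpha, 1 beta and 1 gamma chain. The trimer that holds the LAMA3 and LAMB3 chains anchors epithelia by binding the integrin of ITGA6 and ITGB4 in hemidesmosomes, where the transmembrane collagen of COL17A1 also sits. The trimers that hold the LAMA5 chain with the LAMC1 chain and a beta chain of LAMB1 or LAMB2 are found in most epithelial basement membranes, that of the lung included. Collagen IV, built mainly from the COL4A1 and COL4A2 chains, forms the network to which the laminin layer is linked.

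The DNA in front of the starts of LAMB3, COL4A1 and COL4A2 is shown first, since these genes carry the differences given below. COL4A1 and COL4A2 lie head to head and are transcribed away from each other, and both were higher in the clones. The 126 bases between their annotated starts are therefore shared upstream sequence of both genes. They lie at chr13:110307158-110307283 (RefSeq, GRCh38.p14) and are given on the plus strand, the strand of COL4A2, with a CCAAT box and a GC box (GGGCGG) in capitals.
COL4A1 to COL4A2: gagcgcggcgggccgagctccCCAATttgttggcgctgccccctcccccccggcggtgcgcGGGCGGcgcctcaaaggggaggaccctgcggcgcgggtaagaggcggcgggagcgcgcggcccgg
The CCAAT letters begin at base 22 of this stretch and the GC box at base 62. Over all 35116 RefSeq promoter windows, which run 250 bases before to 50 after a start, 34.6% hold CCAAT and 45% hold GGGCGG on either strand. The COL4A1 and COL4A2 windows were 76.7% and 77.7% G or C, against a median of 58.7% over all windows. Those of LAMA5, LAMC1, LAMB1 and LAMB2, which showed no such rise, were 82.7%, 79%, 71% and 58.7%. A high G or C content was thus not particular to the collagen IV pair.

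LAMB3, the gene that was lower in the clones, has 3 annotated starts. The 250 bases before the outermost start are at chr1:209652426-209652675 on the minus strand, and the letters that the factors ZEB1, ZEB2 and SNAI1 are known to bind (CACCTG, here CAGGTG on the other strand) are in capitals. The innermost start has the letters of an AP-1 site (TGANTCA) in front of it, shown in capitals in a short stretch at chr1:209651425-209651451, also on the minus strand.
LAMB3 outer start: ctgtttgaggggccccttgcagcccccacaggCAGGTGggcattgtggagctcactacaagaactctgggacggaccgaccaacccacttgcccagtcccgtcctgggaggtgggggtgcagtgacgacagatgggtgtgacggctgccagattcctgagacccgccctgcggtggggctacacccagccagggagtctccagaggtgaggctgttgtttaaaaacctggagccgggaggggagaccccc
LAMB3 inner start: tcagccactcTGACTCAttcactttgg
Counted from each start, with -1 the base just before it, the E-box began at -218 of the outer start and the AP-1 letters at -67 of the inner one. Of all windows 20.6% hold CACCTG and 7.71% hold TGANTCA on either strand. Among the 11 windows of the 9 listed genes, 3 held the E-box, those of LAMA3, LAMA5 and the outer LAMB3 start, and 2 held the AP-1 letters, those of LAMA3 and the inner LAMB3 start. The GC box was in 10 of these 11 windows, those of LAMB3 included. CCAAT was in 4, that of the inner LAMB3 start included. Such matches describe the DNA and show no binding.

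Resistant clones were compared with parental cells to ask which genes of the set changed with resistance. LAMB3 fell, COL4A1 and COL4A2 rose, and LAMA5, LAMB1, LAMB2 and LAMC1 stayed within 1.44-fold of parental cells in both clones on their brightest probes. Limma (Benjamini-Hochberg adjusted p under 0.05 over 11914 genes) thus called 3 of the 7 measured genes, against 5.75% of all genes tested. By direction these were 2 higher genes, where 2.67% of all genes were called higher, and 1 lower gene, where 3.08% were called lower. The same 3 genes were at least 2-fold off in both clones, as were 9.95% of all genes, 4.68% higher and 5.27% lower. The genes were chosen with earlier results of these data known, so their share is a description. The 7 differences had a median log2 value of 0.39 in clone 1 and 0.16 in clone 2, beside medians of 0.0082 and 0.0077 over all genes. In cultures measured in bulk, fewer cells with a transcript and less transcript per cell cannot be told apart.

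The p-values rest on the spread between 2 clones, with 1 residual degree of freedom and a prior worth 4.08, and assume that parental cells vary alike. Both clones share the 1 parental array, so an error on that array would enter the differences of both.

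**Figure D1:**
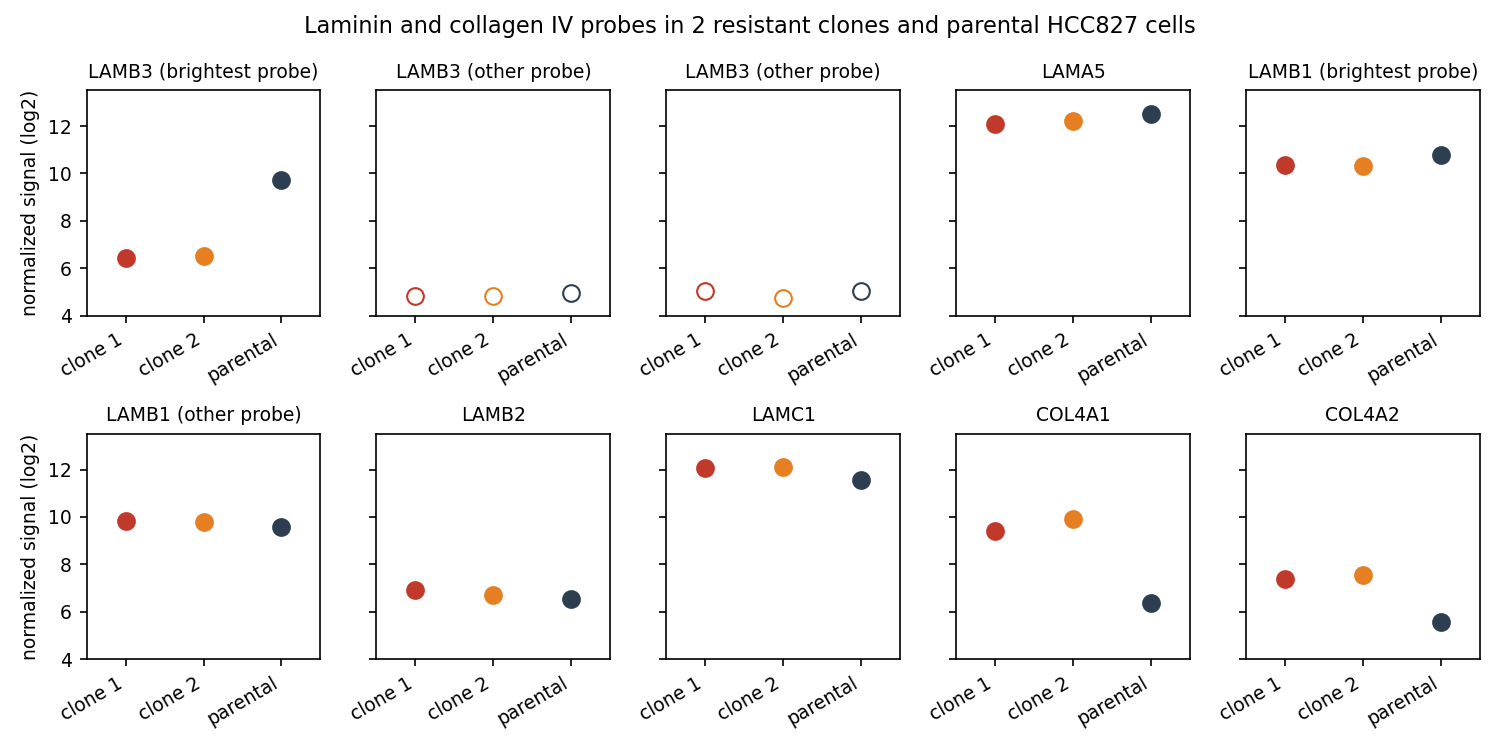
Normalized log2 signal of the 10 probes in clone 1, clone 2 and parental cells, 1 array each; filled points were above background and open points were not. The brightest LAMB3 probe is low in both clones, COL4A1 and COL4A2 are high in both, and the other genes stay near their parental level.

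LAMB3 encodes the beta chain that is particular to the hemidesmosomal laminin. Its brightest probe had intensities of 107 in clone 1 and 118 in clone 2, against 917 in parental cells. Both clones lay far below parental cells and close to each other, but above the background thresholds of 66.1 and 70.7 on their arrays. After normalization the signal in clone 1 was 9.84-fold lower and that in clone 2 was 9.04-fold lower, and limma gave a mean log2 difference of -3.24 (SE 0.26, adjusted p = 0.00651). By mean difference it ranked 90 from the lowest of the 11914 genes. Both other LAMB3 probes were below background on all 3 arrays, at intensities between 52.5 and 59.7, so the fall rests on 1 probe.

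The chains of the other epithelial laminin trimers showed no such change. LAMA5, the alpha chain of that group, had intensities of 4188 in clone 1 and 4764 in clone 2, against 6134 in parental cells. Its log2 differences were -0.41 and -0.27 (limma adjusted p = 0.531). LAMC1, the gamma chain shared by most laminins, had intensities of 4144 in clone 1 and 4380 in clone 2, against 3292 in parental cells. Its log2 differences of 0.49 and 0.53 were nearly equal in the clones but were not called (limma adjusted p = 0.348). LAMA5 was thus slightly lower and LAMC1 slightly higher in both clones, neither past the test.

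The beta chains LAMB1 and LAMB2 also stayed near their parental level. The brightest LAMB1 probe had intensities of 1266 in clone 1 and 1279 in clone 2, against 1896 in parental cells, with log2 differences of -0.45 and -0.47 (limma adjusted p = 0.395). The second LAMB1 probe, also above background on all 3 arrays, had intensities of 904 in clone 1 and 884 in clone 2, against 831 in parental cells. Its log2 differences were 0.28 and 0.21, so the LAMB1 probes disagreed in sign and give no direction for the gene. LAMB2, the beta chain best known from kidney and neuromuscular basement membranes, had intensities of 143 in clone 1 and 130 in clone 2, against 126 in parental cells. Its log2 differences were 0.39 and 0.16 (limma adjusted p = 0.635), at a signal near background.

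Collagen IV moved the other way from LAMB3. COL4A1 had intensities of 674 in clone 1 and 980 in clone 2, against 114 in parental cells. The signal was 8.18-fold higher in clone 1 and 11.7-fold higher in clone 2, and limma gave a mean log2 difference of 3.29 (SE 0.33, adjusted p = 0.0104). Both clones were far above parental cells, clone 2 more so, and the gene ranked 73 from the highest of all tested by mean difference. COL4A2, which supplies the other chain of the same trimer, had intensities of 185 in clone 1 and 209 in clone 2, against 75.7 in parental cells. It was 3.48-fold higher in clone 1 and 3.91-fold higher in clone 2 (mean log2 difference 1.88, SE 0.26, limma adjusted p = 0.0248). Its parental signal lay just above the background threshold of 69.3. Each collagen IV gene had 1 probe, so neither rise has a second probe beside it.

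**Figure D2:**
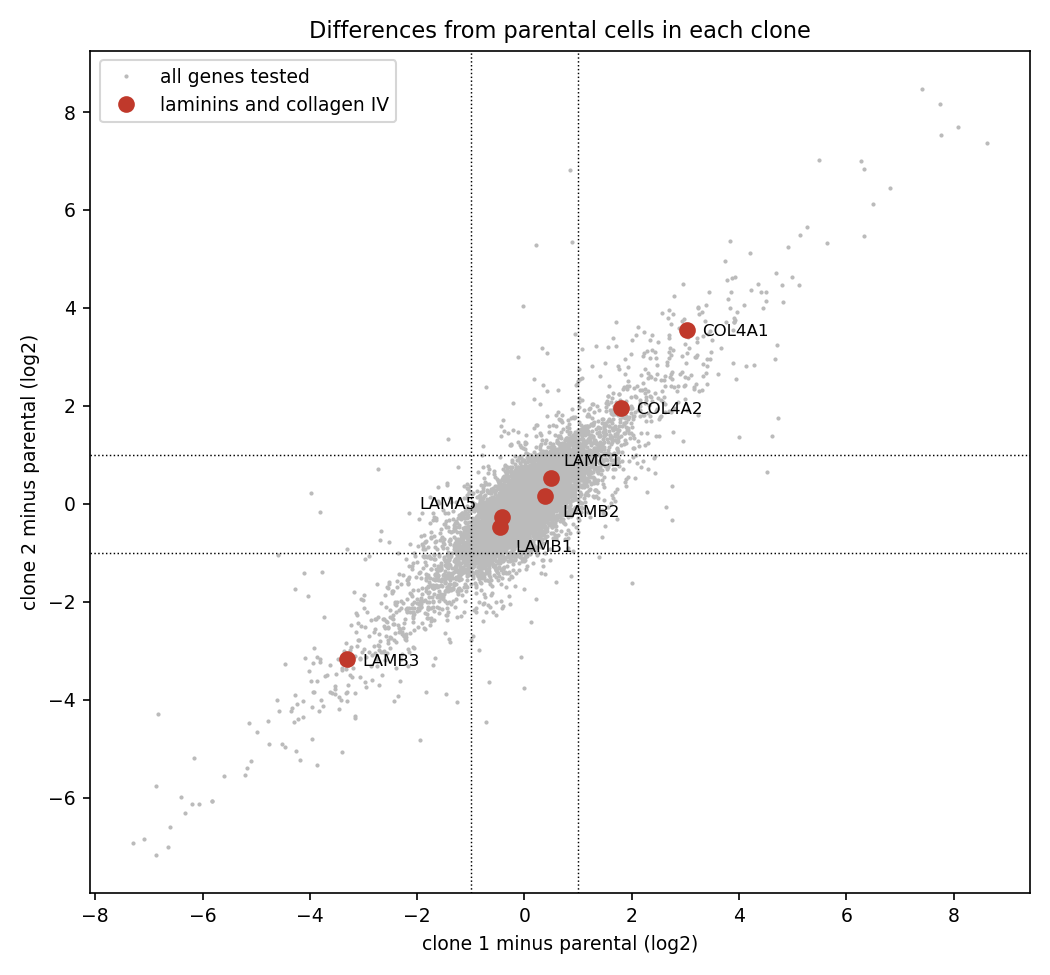
Log2 difference from parental cells in clone 1 (horizontal) and clone 2 (vertical) for all 11914 genes (grey) and the 7 measured laminin and collagen IV genes (red); dotted lines mark 2-fold. LAMB3 lies at -3.30 and -3.18, COL4A1 at 3.03 and 3.55, COL4A2 at 1.80 and 1.97, and the other 4 genes lie inside the 2-fold lines; both axes share the parental array.

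The clones were next set against each other in the 7 genes. The widest gap was that of COL4A1, 1.44-fold higher in clone 2 than in clone 1, and the narrowest that of LAMB1, at 1.02-fold. None of the 7 genes was 2-fold apart between the clones, as were 3.78% of all genes, and with 1 array of each clone there is no test of this difference. For 6 of them the log2 gap was smaller than the median gap over all genes, 0.25, while that of COL4A1, 0.52, was larger.

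By the pair of differences from parental cells, the genes nearest to COL4A1 among 9787 genes above background on all 3 arrays were EML1, S100A3 and DDX52. EML1, which encodes a microtubule-binding protein, lay 0.0465 log2 units away, S100A3, a calcium-binding protein, 0.0681, and DDX52, an RNA helicase, 0.103. This likeness is measured over 3 arrays.

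**Figure D3:**
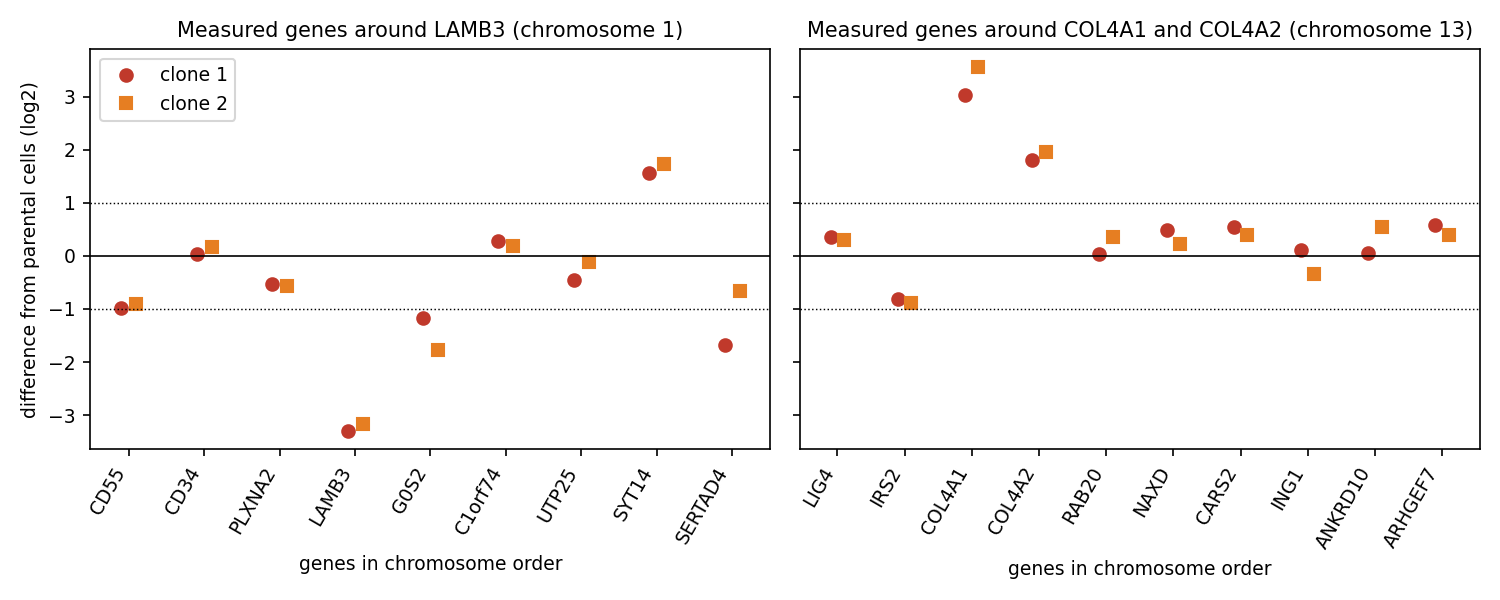
Log2 difference from parental cells in clone 1 (circles) and clone 2 (squares) for measured genes among the 8 annotated protein-coding genes on each side of LAMB3 (left) and of COL4A1 (right), in chromosome order; dotted lines mark 2-fold. COL4A1 and COL4A2 stand above all neighbours, which stay between -0.89 and 0.59, and LAMB3 stands below all of its own.

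Genes beside these on the chromosome, chosen after the values were seen, were read next to them. Of 15 annotated neighbours of the COL4A1 and COL4A2 pair 8 were measured, limma called 0 of them (1 had an unadjusted p under 0.05), and all 8 were under 2-fold in both clones, as were 80.8% of all genes. IRS2, an adaptor of insulin receptors on the COL4A1 side, had log2 differences of -0.82 and -0.89, and RAB20, a small GTPase next to COL4A2, had 0.03 and 0.35. Of 16 neighbours of LAMB3 8 were measured, 3 had an unadjusted p under 0.05 and 5 were under 2-fold in both clones. Over all genes limma called 5.75%, 20.5% had an unadjusted p under 0.05 and 80.8% were under 2-fold in both clones. G0S2, an inhibitor of fat breakdown beside LAMB3, had differences of -1.18 and -1.77 (limma adjusted p = 0.0905), and SYT14, a synaptotagmin, was the 1 neighbour called, with 1.57 and 1.73 (adjusted p = 0.0347), in the direction opposite to LAMB3. SERTAD4 had -1.68 and -0.65 (adjusted p = 0.257).

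Other chains of the same families were few. Of 5 other laminin chains described here, LAMA1, LAMA4 and LAMB4 were below background on all 3 arrays, and LAMC3 and LAMA2 were measured. LAMC3, the gamma chain of a few laminin trimers, had intensities of 757 in clone 1 and 745 in clone 2, against 77.4 in parental cells, where it lay just above background. It rose 15.6-fold in clone 1 and 15-fold in clone 2 (mean log2 difference 3.94, SE 0.26, limma adjusted p = 0.00494). With an offset of 50 the mean log2 difference was 3.24. LAMA2, the alpha chain of muscle laminin, was near background throughout, with a mean log2 difference of 0.0086 on its brightest probe that turned to -0.0453 after median scaling.

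Of 7 other basement membrane collagens 4 were measured, of which limma called 1 higher and 0 lower, beside 2.67% and 3.08% of all genes. At an unadjusted p under 0.05 these counts were 1 and 1, beside 10% and 10.5% of all genes. COL18A1, the proteoglycan collagen from which endostatin is cut, had intensities of 444 in clone 1 and 679 in clone 2, against 172 in parental cells. It rose 3.13-fold and 4.82-fold (limma adjusted p = 0.0451, and from 0.0259 to 0.0628 under other settings), and its second probe was below background. COL4A5, a collagen IV chain of other trimers, had intensities of 298 in clone 1 and 598 in clone 2, against 1154 in parental cells, and log2 differences of -1.90 and -0.86 (limma adjusted p = 0.197). Its second probe had differences of -1.40 and -0.48, so both probes were lower in both clones, opposite in sign to COL4A1 and COL4A2. COL7A1, of the fibrils that anchor hemidesmosomes, had differences of 0.28 and 1.12 (adjusted p = 0.417).

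**Figure D4:**
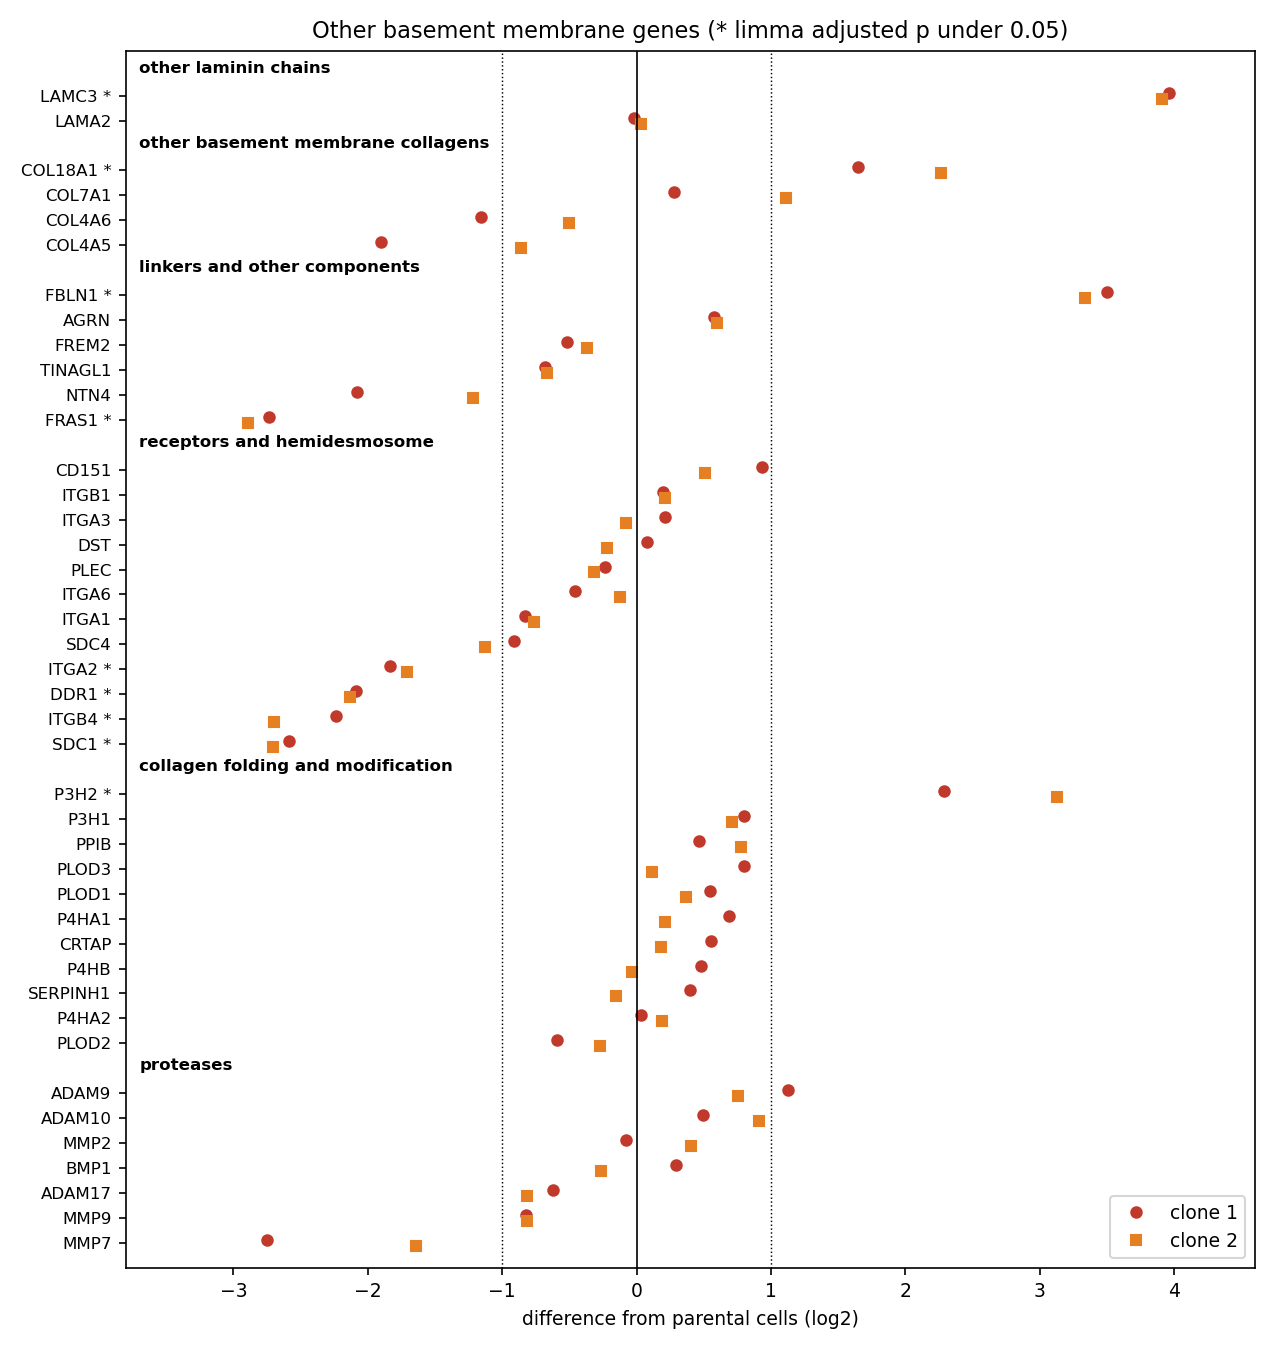
Log2 difference from parental cells in clone 1 (circles) and clone 2 (squares) for the measured genes of 6 lists of basement membrane genes; dotted lines mark 2-fold and a star marks a limma adjusted p under 0.05. Of the starred genes LAMC3, COL18A1, FBLN1 and P3H2 stand to the right, and FRAS1, SDC1, ITGB4, DDR1 and ITGA2 to the left; MMP7 and NTN4 are also beyond 2-fold to the left in both clones without a star.

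Among 14 linkers and other components of the sheet, 6 were measured, with 1 called higher and 1 lower by limma, beside 2.67% and 3.08% of all genes. FBLN1, fibulin-1, which binds laminin and nidogen, rose from a parental signal just below background, by at least 10.7-fold for the mean of the clones with the main processing (limma adjusted p = 0.00613). Its fitted log2 difference of 3.42 came to 2.66 with an offset of 50 and to 2.15 as the mean of entering probes. Of its other probes, 1 had differences of 2.98 and 2.55, 1 had 0.62 and -0.0814, and the other two were below background on all 3 arrays. FRAS1, which stands at the junction of epithelium and mesenchyme, was below background in both clones and fell at least 4.34-fold with the main processing (limma adjusted p = 0.00960). Its fitted log2 difference was -2.81, and -1.86 with an offset of 50. NTN4, a netrin that binds laminin, had differences of -2.08 and -1.22 without a call (adjusted p = 0.111), and AGRN, the proteoglycan agrin, had 0.58 and 0.60 (adjusted p = 0.289). NID1, NID2 and HSPG2, which link laminin to collagen IV, were below background on all 3 arrays.

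Of 15 receptors and hemidesmosome genes 12 were measured, and limma called 4 lower and 0 higher, beside 3.08% and 2.67% of all genes. At an unadjusted p under 0.05 these counts were 6 and 0, beside 10.5% and 10% of all genes, or 20.5% in either direction. The list had a median log2 difference of -0.65 in clone 1 and -0.54 in clone 2. SDC1, syndecan-1, a proteoglycan that binds laminin, had intensities of 174 in clone 1 and 165 in clone 2, against 999 in parental cells, and fell 5.99-fold and 6.53-fold (adjusted p = 0.0104). ITGB4 is the integrin chain that binds the LAMB3 trimer. Its brightest probe had intensities of 81.1 in clone 1 and 69.6 in clone 2, against 314 in parental cells. This probe was below background in clone 2 (limma adjusted p = 0.0185). The mean log2 difference of ITGB4 was -2.47, and -1.87 with an offset of 50 and -2.03 as the mean of entering probes. Another ITGB4 probe had differences of -1.68 and -1.52 and was below background in clone 1 but not in clone 2. ITGA6, the partner of ITGB4, had log2 differences of -0.46 and -0.12, and PLEC, plectin, which ties ITGB4 to keratins, had -0.24 and -0.32, both without a call. DST, also of this list, was not called, with 0.08 and -0.22 on its brightest probe, but its probes disagreed. The other entering DST probes had -1.07 and -0.99, -0.81 and -1.07, -0.22 and -0.19, and 0.13 and -0.32. The collagen receptors DDR1 and ITGA2 also fell (limma adjusted p = 0.0171 and 0.0284), DDR1 by a mean log2 difference of -2.11 that came to -1.41 as the mean of its entering probes. ITGB1, the beta chain that most other laminin and collagen receptors share, was the brightest gene of the list under 2-fold, with log2 differences of 0.19 and 0.21.

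Of 12 genes of collagen folding and modification 11 were measured, and limma called 1 higher and 0 lower on their brightest probes, beside 2.67% and 3.08% of all genes. At an unadjusted p under 0.05 these counts were 2 and 0, beside 10% and 10.5% of all genes. P3H2, a prolyl hydroxylase that acts on collagen IV, had intensities of 1511 in clone 1 and 2767 in clone 2, against 364 in parental cells, and rose 4.88-fold and 8.75-fold (limma adjusted p = 0.0308). SERPINH1, the collagen chaperone of the endoplasmic reticulum, had log2 differences of 0.40 and -0.15, and PLOD2, a lysyl hydroxylase and the brightest gene under 2-fold, had -0.59 and -0.27. Probes disagreed for P4HA1, a prolyl hydroxylase subunit, with 0.69 and 0.21 on its brightest probe and 1.57 and 1.27 on the other, and a dimmer CRTAP probe had 1.41 and 0.53. Of 8 proteases that act on the sheet 7 were measured and limma called 0, beside 5.75% of all genes, with 1 higher and 3 lower at an unadjusted p under 0.05, beside 10% and 10.5%. The matrix metalloprotease MMP7 was farthest off (log2 differences of -2.75 and -1.64, adjusted p = 0.0850). ADAM10, a membrane-bound sheddase, was the brightest under 2-fold, at 0.50 and 0.91 on its brightest probe. A dimmer ADAM10 probe had 1.14 and 0.82, past 2-fold in clone 1.

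Cell type markers were read beside these values, since fibroblasts and endothelial cells also make collagen IV. Of 6 fibroblast markers COL1A1, COL1A2, COL3A1, DCN and LUM were below background on every array, and PDGFRA had intensities of 106 in clone 1 and 146 in clone 2, against 133 in parental cells. Of 5 endothelial markers CDH5, VWF, KDR and TEK were below background on every array, and PECAM1 had 115 in clone 1 and 84.3 in clone 2, against 138 in parental cells. Neither PDGFRA nor PECAM1 was called (adjusted p = 0.995 and 0.498). PTPRC and CD3E of the leukocyte list were below background. CD14 was at 70.8 and 82.3 in the clones, against 186, and was called lower (limma adjusted p = 0.0427). Of 3 smooth muscle markers MYH11 and CNN1 were below background, and ACTA2 was at 449 and 361 in the clones, against 338.

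The epithelial markers EPCAM, CDH1 and KRT8 were called lower in the clones and KRT19 was lower without a call. Their summed intensity, KRT19 included, was 8390 in clone 1 and 3419 in clone 2, against 46634 in parental cells, while the KRT18 probes were below background on all arrays. Of the lung adenocarcinoma markers SFTPB was below background on all arrays. NKX2-1 and NAPSA were called lower in the clones, with a summed intensity of 186 in clone 1 and 134 in clone 2, against 3314 in parental cells. These markers moved with LAMB3 and ITGB4, and their part in those differences was not tested.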

How the data were processed

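Total RNA was labelled with biotin, per the labels' protocols. The deposited non-normalized table gives a linear intensity per probe, with no detection p-value or control probe. The authors' processed table was deposited too and holds a linear intensity per probe, with medians of 59.7, 59.7 and 59.6 in clone 1, clone 2 and parental cells, and correlates with the first on the log2 scale at r of at least 0.99995. The steps behind it are not given in the sources used here. It is neither centred nor a ratio, and its direction is that of the signal.

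From the first table, background was corrected with normexp (limma 3.58.1 in R 4.3.3, offset 16), and values were taken to log2 and quantile normalized. Background was estimated from each array's dim probes: the mode of log2 signal and the spread below it, with a one-sided p under 0.01 counted as above it. The thresholds were intensities of 66.1, 70.7 and 69.3 in clone 1, clone 2 and parental cells, and 34.5%, 33.8% and 35.1% of probes passed. Probes were named from the platform annotation, with symbols updated through RefSeq (28059 of 28098 probes with 1 gene; 13 had several and 20692 were not listed). A probe entered if above background on at least 1 array, and a gene is its brightest entering probe, which left 11914 genes. Resistant and parental arrays were compared with limma (lmFit, eBayes, Benjamini-Hochberg, two-sided). The number of arrays limits the precision, and nothing says that p-values measure more than the spread between these samples. For a gene below background in a whole group the fold is a lower bound, taken against the lowest signal above background there or its own.

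The genes named are all listed members and, from 6 lists of basement membrane genes, up to 4 that differed by 2-fold or more in both clones, plus the brightest under 2-fold; a few others were named after their values were seen. Of the genes in those 6 lists, 1 is not reported here. The members and lists were chosen with earlier results of these data known. The fit was tested on simulated data. Promoter sequences come from RefSeq (GRCh38.p14), and all 9 listed genes matched.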

Additional observations from a re-analysis of the deposited data

How the results depend on the processing

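The calls of LAMB3, COL4A1 and COL4A2 and the lack of a call for the other 4 genes held in all 63 gene-by-setting values of 9 alternatives: no background correction, an offset of 50, median scaling, cyclic loess, the authors' processed table, no filter on dim probes, probes above background on all 3 arrays, a background p under 0.05, and the mean of entering probes. These values are not independent checks. Changes to the filter on dim probes left every log2 difference of these genes as it was, as did the mean of entering probes except for LAMB1. The authors' table nearly repeated the values without background correction, with COL4A1 at 2.94 in both. Log2 differences ran from -3.35 to -2.83 for LAMB3, from 2.85 to 3.29 for COL4A1 and from 1.36 to 1.89 for COL4A2, and adjusted p-values reached 0.0134, 0.0176 and 0.0434. With probes above background on all 3 arrays, 282 genes were called among all tested, against 685, over fewer genes. LAMA2 turned to -0.0453 after median scaling, a setting that moved the median difference over all genes from 0.0105 to -0.0794. What turned LAMA2 there was not tested. As the mean of entering probes LAMA2 was at -0.23, a mean that takes in its second probe. That probe had log2 differences of -0.64 and -0.30 and was above background in parental cells only. COL18A1 was no longer called without background correction (adjusted p = 0.0559), with an offset of 50 (0.0628), in the authors' table (0.0558) and with probes above background on all 3 arrays (0.0583).

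Leaving out either clone leaves 1 array against 1, a value with no test. LAMB3 then lay between -3.30 and -3.18, COL4A1 between 3.03 and 3.55 and COL4A2 between 1.80 and 1.97. These are the differences of the single clones given above. The 3 genes at least 2-fold off in both clones therefore stay so by definition, which is no further check. No paired analysis was possible, because parental cells have 1 array and the labels name no pairs of resistant and parental arrays. Signals near background, as for COL4A1, COL4A2 and LAMC3 in parental cells, LAMB2 on all arrays and LAMB3 in the clones, limit the size of the fold changes given.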
